A study of Mus musculus with 4 samples.

Results

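Vascular smooth muscle cells (VSMCs) of the mouse ventromedial prefrontal cortex (vmPFC) were 96 of the 21263 filtered cells of 4 single-cell RNA libraries. They were chosen by raw counts of unique molecular identifiers (UMIs, each counted as 1 captured RNA molecule). A member had at least 10 UMIs summed over Acta2, Tagln and Myh11, at most 3 of Cldn5, at most 2 of Cx3cr1 and P2ry12 together, and at most 2 of Slc17a7, Gad1 and Gad2 together, and was not listed in the study's neuron metadata. All groups came from male C57BL/6 mice that were injected at 8 weeks of age with rAAV2-retro viruses, each carrying EGFP and its own barcode, into 5 targets (AI, DMS, MD, BLA and LH) and killed 6 weeks later. No uninjected control was analysed here. The prelimbic and infralimbic areas were dissected, dissociated and captured with 10x Genomics 3' chemistry. The 3 unsorted libraries are titled as 1 mouse each and held 30, 34 and 32 members, whereas the sorted library, pooled from 3 mice and enriched for EGFP, held 0 of 1791 filtered cells, which allows a share of up to 0.168% (counting error only). Every comparison below was made inside the unsorted libraries, with each library a replicate (n = 3) and the cells of a library summed.

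Vascular smooth muscle cells wrap arteries, arterioles and, more loosely, venules, and their tone sets vessel diameter. Calcium that enters through voltage-gated channels or leaves the sarcoplasmic reticulum activates myosin light chain kinase, and myosin then pulls on smooth muscle actin filaments. Pericytes are the neighbouring mural cells of the capillaries. They share the Notch3 and Pdgfrb signalling of smooth muscle cells and sit in the same basement membrane as the endothelium. Much of the contractile programme is driven by serum response factor (SRF) and its cofactor myocardin at CArG boxes, short AT-rich elements.

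The CArG boxes are shown because they are the element through which SRF acts, and a minority of the genes measured here held one. Promoters from 250 bases before to 50 bases after the start site were searched (RefSeq start sites, GRCm38.p6) for CCNNNNNNGG with A or T alone at the 6 middle bases. The pattern reads the same on both strands. It was present for 488 of 27025 genes with a promoter (1.81%). Of the 26 genes of the contractile list, 23 had a promoter in the table, and 4 of those 23 held the box. Tagln and Myh11 had no promoter there and were not searched. The box is in capitals in the 30 bases printed, from 5′ to 3′ on the strand of the gene.
Myl9, chr2:156775293-156775322: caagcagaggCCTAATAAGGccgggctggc
Myl6, chr10:128493040-128493069: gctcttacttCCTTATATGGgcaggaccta
Ldb3, chr14:34588697-34588726: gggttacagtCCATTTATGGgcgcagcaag
Vcl, chr14:20929161-20929190: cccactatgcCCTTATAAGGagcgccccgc
Srf, the gene of the factor itself, held 2 such boxes.
Srf, chr17:46556205-46556234: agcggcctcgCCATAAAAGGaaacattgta
Srf, chr17:46556225-46556254: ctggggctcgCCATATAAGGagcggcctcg
Allowing 1 G or C among the 6 middle bases, 11.3% of all genes with a promoter had a match. Acta2 had 2 such matches, which began 84 and 34 bases before its start site.
Acta2, chr19:34255438-34255467: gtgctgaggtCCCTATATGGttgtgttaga
Acta2, chr19:34255388-34255417: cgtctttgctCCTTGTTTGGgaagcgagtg
Among the genes higher in VSMCs than in pericytes (below), 15 of 478 with a promoter held the exact box (3.14%), against 6 of 460 among the lower genes (1.30%) and 77 of 3834 among all genes tested (2.01%). A match is a string of letters and not a measured binding site.

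The members were separated from other cells by a gap in the UMI sum that chose them. Among the cells within the 3 upper limits and outside the metadata, 4837 had no UMI of the 3 genes, 55 had 1 or 2, 7 had 3 to 5, 1 had 6 to 9 and 0 had 10 to 19. The 96 members had 20 or more, with 33 of them at 100 or more. The 3 members nearest the limit had sums of 20, 21 and 21 with 0 UMIs of Pln each, and the 3 cells nearest to it from outside had 8, 5 and 5, also without Pln. The same 3 members held 24, 36 and 41 UMIs of Rgs5 and 5, 13 and 58 UMIs of Vtn, both abundant in pericytes. The 3 cells outside held 0 to 41 UMIs of Rgs5 and 0 to 27 of Vtn. These sums chose the cells and are given as a description. A further 65 unsorted cells reached the sum but went over an upper limit, 58 of them on Cldn5, and their median depth was 12100 UMIs. They were left out of the members and stayed among all other cells.

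**Figure D1:**
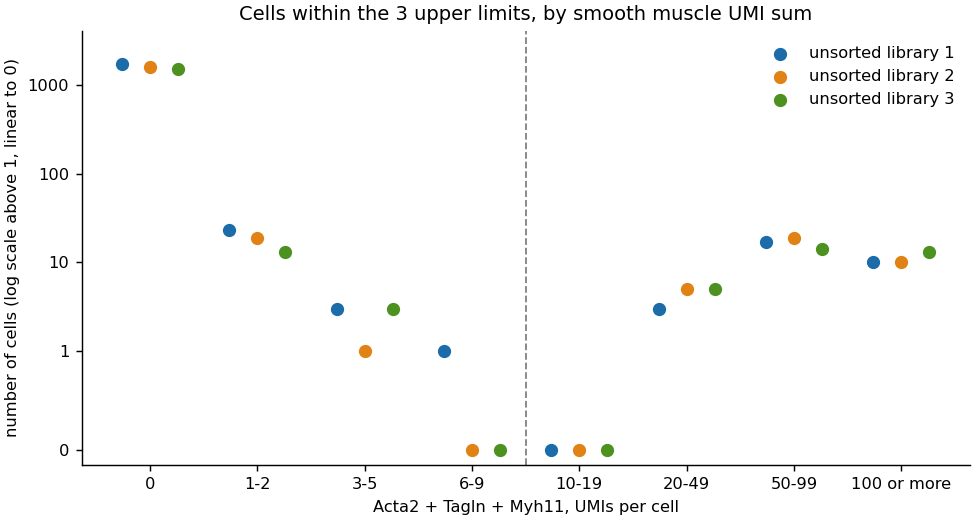
Number of cells (log axis above 1, linear to 0) by their UMI sum of Acta2, Tagln and Myh11, for cells outside the metadata and within the 3 upper limits, 1 point per unsorted library. The dashed line is the limit of 10 UMIs, and no library had a cell between 10 and 19.

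The share of VSMCs was 0.428%, 0.537% and 0.522% of the filtered cells of the 3 unsorted libraries (mean 0.496% ± 0.0592, SD, n = 3). The 95% Wilson intervals of 0.30% to 0.61%, 0.385% to 0.749% and 0.37% to 0.736% overlapped. The members held a median of 4313 UMIs and 1764.5 genes per cell, and 437019 UMIs in all. The 503 pericytes, chosen by at least 6 UMIs of Kcnj8, Abcc9, Higd1b and Vtn, fewer than 6 of the smooth muscle sum and the same upper limits, held a median of 2318 UMIs. Mitochondrial transcripts made up a median of 14.3% of the UMIs of a VSMC, 6.91% of a pericyte and 7.54% of all other cells. No member shared its cell barcode with another library. UMIs of the viral construct were found in 2 of 96 VSMCs (2.08%), against 3.97% of 2799 microglia, a type that should lack the construct, so this share was at background.

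The 4 markers given for the cell type were all present. Acta2 encodes smooth muscle alpha-actin (chr19:34241090-34255590, GRCm38) and was counted 11 to 142 times per cell, with a median of 49. Tagln, encoding transgelin (chr9:45929619-45936058), ranged from 3 to 98 UMIs. Myh11, the smooth muscle myosin heavy chain (chr16:14194535-14291372), was found in 94 of 96 cells. These 3 genes chose the cells. Pln, which did not, encodes phospholamban, the brake on the calcium pump of the sarcoplasmic reticulum (chr10:53337667-53345987). It was found in 89 of 96 VSMCs (median 8 UMIs, up to 37), in 0.199% of pericytes, in 0.0532% of endothelial cells and in 0.214% of microglia. Markers of other cell types were below the level in their own type, though not absent. The 19 pericyte markers summed to 5280 to 7547 CPM in VSMCs (UMIs per 1000000 UMIs of the group, unscaled), against 37971 to 39006 in pericytes, 5004 to 5855 in endothelial cells and 1552 to 1720 in all other cells. The summed level of the 11 endothelial markers was 293 to 656 CPM in VSMCs, 980 to 1383 in pericytes and 35050 to 36433 in endothelial cells, with no marker at 0. Bsg held most of it in VSMCs, with 57 and 75 UMIs in the members of high and low contractile share (split below). Of the 11 microglia and macrophage markers, Tmem119, Mrc1, Pf4 and Cd163 were at 0 in VSMCs and the sum was 43.6 to 133 CPM, against 30656 to 31177 in microglia. The 9 fibroblast markers summed to 668 to 915 CPM, with Col1a1 and Dpt at 0, which was above the 278 to 289 CPM of all other cells and below the 2210 to 2405 CPM of pericytes. Mgp held most of the VSMC sum, with 103 and 177 UMIs in the same 2 groups of members, followed by Col1a2 with 21 and 23. The 7 astrocyte markers summed to 99.6 to 135 CPM, with Aldh1l1 and Gfap at 0. The 7 oligodendrocyte lineage markers summed to 60.1 to 224 CPM, with Mog, Mag and Cldn11 at 0. The 7 neuron markers summed to 244 to 1251 CPM, with none at 0, and the 5 erythrocyte markers had no UMI.

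Against all other filtered cells outside the metadata, 1178 of 14634 genes were higher in VSMCs (8.05%) and 2779 were lower (19%), together 27%, called by edgeR where the adjusted p (Benjamini-Hochberg) was below 0.05 and the log2 fold change was 1 or more in either direction. The 11611 other cells are a mixture of all types, and the median log2 fold change of all genes was -0.63. Without unsorted library 2 the counts fell to 481 and 264. Of the 3957 called genes, 3952 were tested there, 739 were still called and 0 changed sign. In the rest of this report, CPM is scaled by the TMM factors of the comparison named, values are listed in the order of libraries 1, 2 and 3, and the genes that chose the cells of a comparison are left out of its counts.

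The genes furthest above other cells included parts of the contractile machine and its regulators. Pln stood at 2092, 2014 and 2042 CPM in VSMCs and at 2.07, 1.96 and 2.42 CPM in other cells (log2 fold change 9.89, SE 0.14, adjusted p below the smallest number the fit can write). Cnn1, encoding calponin, which restrains actomyosin, was at 169.6, 379 and 233 CPM against 0.518, 0.230 and 0.238 CPM (log2 fold change 9.57, SE 0.42, adjusted p = 4.86e-109). The 3 VSMC values of either gene lay far above the values of the other cells. Tpm2, a tropomyosin, was at 3497, 3483 and 3439 CPM against 14.7, 11.4 and 13.4 CPM (log2 fold change 8.05). Pdlim3, a PDZ and LIM protein of actin anchor points, followed with a log2 fold change of 8.27 and Xirp1, which binds actin, with 8.78. The other genes among the 10 highest were Aoc3, a surface amine oxidase (8.98), the receptor gene Gpr20 (8.14), Smim5 (8.85), Pi15 (7.96) and BC051019. The last had 22 UMIs in VSMCs and 3 in other cells. All 22 contractile genes tested outside the rule were higher, with a median log2 fold change of 4.01. Of the 23 mural transcription factor genes tested 15 were higher and 0 lower, and of the 39 vasoactive genes 17 were higher and 7 lower. The olfactory receptor genes Olfr558 and Olfr78 were among the higher vasoactive genes, Olfr558 at 202, 119.6 and 241 CPM against 1.70, 1.88 and 1.66 CPM and Olfr78 at 32.3, 39.9 and 62.1 CPM against 0.259, 0.192 and 0.277 CPM. The 10 lowest genes had no UMI in any member and mark other cell types. They were Cldn11, Mag, Ermn and Enpp2 of oligodendrocytes, Trem2, Ccl3, Laptm5, Tmem119 and Fcrls of microglia, and Synpr of synaptic vesicles. Against a floor of 3 UMIs over the VSMC sums they were at least 27.4-fold (Fcrls) to 52.4-fold (Cldn11) lower. Without library 2 the vasoactive genes had 9 higher and 0 lower, and Olfr78, Pi15, Ermn, Enpp2, Tmem119, Fcrls and Synpr lost their call.

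The comparison with pericytes asks what sets the 2 mural cell types apart. Of 4821 genes, 635 were higher in VSMCs (13.2%) and 591 were lower (12.3%), together 25.4%, and the median log2 fold change was -0.04. The counts of each list below are to be read beside these shares. The split depended on the scaling, since 51.8% of the calls were higher with TMM factors and 33.8% with none. Under DESeq2, which changes the test as well, 62.3% were higher and the median log2 fold change was -0.06. The count of lower genes rose to 1196 of 9207 when the pericytes were taken without the 3 upper limits (896 cells). Endothelial markers were then lower in VSMCs for 10 of 10 tested (median log2 fold change -6.16), against 3 of 5 (-2.12) with the limits. Microglia and macrophage markers were lower for 7 of 7 tested, against 0 of 1 with the limits. Those 896 cells thus held more RNA of these other types. Of the 503 pericytes, 159 (31.6%) had a UMI of Dcn, Lum, Col1a1, Slc6a13 or Dpt, which fibroblasts express, against 3 of 96 VSMCs, and 22 VSMCs (22.9%) also reached the pericyte sum of 6. The mitochondrially encoded genes were higher in VSMCs for 12 of 13 genes, with a median log2 fold change of 1.18, and for 5 of 13 with no TMM factors. The part of these in the results was not tested.

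Contractile genes were higher in VSMCs as a group. Outside the 3 genes of the rule, 19 of 22 tested were higher and 0 lower (median log2 fold change 3.47), and this stayed at 18 to 19 higher and 0 lower with no TMM factors and under DESeq2. Lmod1, encoding leiomodin, which starts actin filaments, stood at 283, 415 and 366 CPM in VSMCs and 2.10, 11.1 and 18.5 CPM in pericytes (log2 fold change 5.04, SE 0.30, adjusted p = 1.70e-15). Csrp1, a LIM protein of the actin cytoskeleton, stood at 1351, 1585 and 1432 CPM against 18.9, 33.3 and 69.3 CPM (log2 fold change 5.18, SE 0.20, adjusted p = 8.83e-21). Synpo2, encoding myopodin, had 129, 194 and 127 CPM against 8.40, 2.22 and 0 CPM (log2 fold change 5.21, SE 0.50, adjusted p = 1.72e-10). The groups did not overlap in any of these genes. Cnn1 and Pdlim3 had too few pericyte UMIs for a fitted fold. Cnn1 had 108 UMIs in VSMCs and 2 in pericytes, a ratio of 186-fold, with a 95% counting interval of 50.3 to 1558. Pdlim3 had 198 against 2 UMIs, a ratio of 342-fold, with a 95% counting interval of 93.3 to 2840. Sncg, encoding gamma-synuclein, had 319 against 4 UMIs (log2 fold change 7.92). The light chain genes were also well measured in pericytes. Myl9, the regulatory light chain that the kinase phosphorylates, was at 6294, 5911 and 6903 CPM against 1366, 1464 and 1428 CPM (log2 fold change 2.16, SE 0.08, adjusted p = 1.85e-20), and Myl6, the essential light chain, at 6949, 6472 and 7436 CPM against 1128, 1033 and 1075 CPM (log2 fold change 2.69, SE 0.09, adjusted p = 5.95e-23). Cald1, Vcl and Zyx were not called, with log2 fold changes of -0.31, 0.42 and 1.00. Of the 4 contractile genes with an exact CArG box printed above, Myl9, Myl6 and Ldb3 were higher and Vcl was not called.

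**Figure D2:**
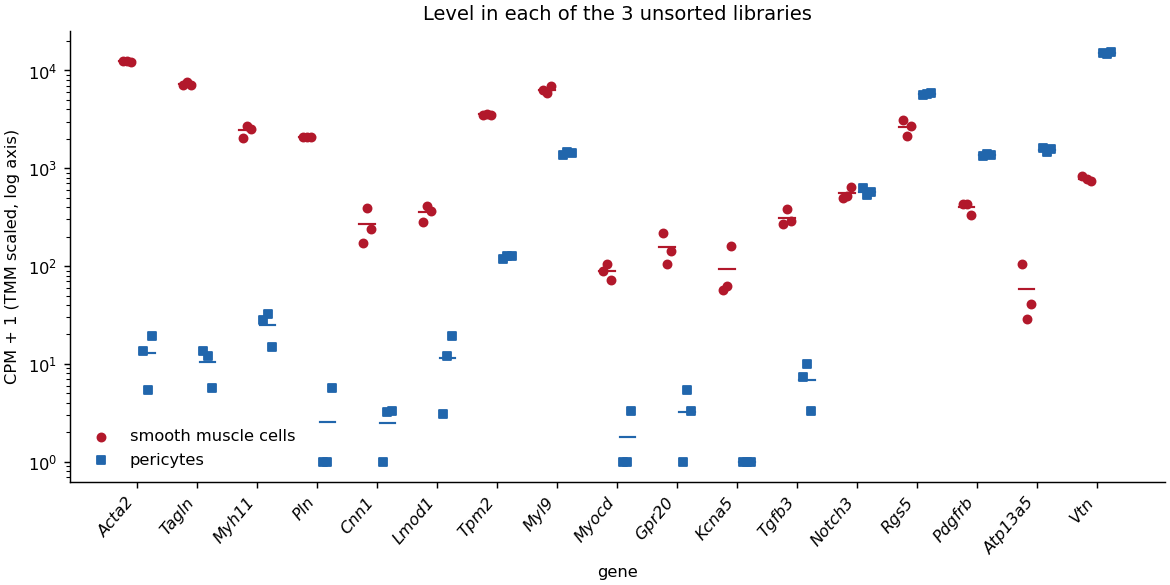
CPM plus 1 (TMM scaled, log axis) of 17 genes in VSMCs (red circles) and pericytes (blue squares), 1 point per unsorted library with the mean as a bar. Acta2, Tagln, Myh11 and Vtn chose the cells, Pln and the contractile genes are 10-fold or more apart except Myl9, and the points of Notch3 overlap.

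Of 22 calcium handling genes tested, 11 were higher, 3 were lower and 8 were not called. Of all genes, 13.2% were higher and 12.3% lower. Against pericytes without the upper limits, 15 of 26 calcium handling genes were higher and 1 lower. Pln had 2095, 2097 and 2092 CPM in VSMCs and 0, 0 and 4.62 CPM in pericytes, the latter from 2 UMIs, a ratio of 1423-fold, with a 95% counting interval of 393 to 11771. Atp2a2, the calcium pump that phospholamban restrains, was at 1141, 976 and 1002 CPM against 185, 162 and 146 CPM (log2 fold change 2.66, SE 0.14, adjusted p = 7.66e-17). The pump was counted in both cell types, whereas Pln was found in at most 0.214% of the pericytes, endothelial cells and microglia. Ppp1r12b and Ppp1r12a, the myosin phosphatase targeting subunits, were higher with log2 fold changes of 4.12 and 2.63. Mrvi1, the partner of the inositol trisphosphate receptor under cyclic GMP, was higher by 3.20 and Atp2b4, a plasma membrane calcium pump, by 2.87 on the log2 scale. Rgs5, a brake on G protein signalling used as a pericyte marker, was at 3090.5, 2146 and 2728 CPM against 5679, 5704 and 5815 CPM (log2 fold change -1.12, SE 0.09, adjusted p = 1.92e-12), and it was no longer called without library 2 or against pericytes without the upper limits. Its relative Rgs4 was not called (log2 fold change -0.31).

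Potassium and chloride channel genes outside the rule were higher for 6 of 8 tested and lower for 0. Kcna5, a voltage-gated potassium channel, had 56.6, 62.3 and 159 CPM in VSMCs and no UMI in pericytes, which puts it at least 41.4-fold higher against 3 UMIs over the pericyte sums. Kcnab1, the beta subunit of such channels, had 243, 221 and 207 CPM against 8.40, 2.22 and 2.31 CPM (log2 fold change 5.54, SE 0.39, adjusted p = 8.93e-14). Both stood above every pericyte value in each library. Kcnma1 and Kcnmb1, the pore and beta subunit of the large-conductance calcium-activated channel, were higher by 3.58 and 1.26, the latter not with TMM factors left out. Kcnk3, a leak channel, was higher by 2.23 (adjusted p = 9.83e-10). Ano1, the calcium-activated chloride channel, was not called (log2 fold change -0.09, SE 0.19, adjusted p = 0.78). Kcnj8 and Abcc9, the 2 subunits of the vascular ATP-sensitive channel, chose the pericytes, and Kcnj8 or Abcc9 was found in 5 of 96 VSMCs.

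Among 14 vasoactive genes tested, 6 were higher, 3 were lower and 5 were not called, and 28 of the 42 listed were below the filter on low counts. Gpr20 had 60 UMIs in VSMCs and 3 in pericytes, a ratio of 69.0-fold, with a 95% counting interval of 22.5 to 344. Olfr558 had 202, 125 and 247 CPM against 6.30, 2.22 and 2.31 CPM (log2 fold change 5.54, SE 0.42, adjusted p = 5.72e-13). Ramp1, a part of the receptor for the dilator peptide CGRP, had 210.3, 235 and 294 CPM against 29.4, 4.44 and 9.24 CPM (log2 fold change 4.04, SE 0.34, adjusted p = 8.84e-12). These 3 receptor genes were higher in each of the 3 libraries. The phosphodiesterase genes Pde3a and Pde5a, which break down the cyclic nucleotides that relax smooth muscle, were higher by 4.04 and 1.49 on the log2 scale. The pericyte side held P2ry14, a receptor for UDP-sugars, at 178, 34.6 and 95.4 CPM in VSMCs against 813, 849 and 867 CPM (log2 fold change -3.08, SE 0.23, adjusted p = 2.80e-13), and Tbxa2r, the thromboxane receptor, at 64.7, 41.5 and 55.7 CPM against 277, 242 and 275 CPM (log2 fold change -2.30, SE 0.26, adjusted p = 6.76e-09). Gucy1a1 and Gucy1b1, the 2 subunits of the nitric oxide receptor guanylate cyclase, were not called, with log2 fold changes of 0.41 and -0.65. The median of the 14 genes, 0.23, became -0.07 with no TMM factors, so no direction is given for the list. Against pericytes without the upper limits, 12 of 23 were higher and 5 lower.

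**Figure D3:**
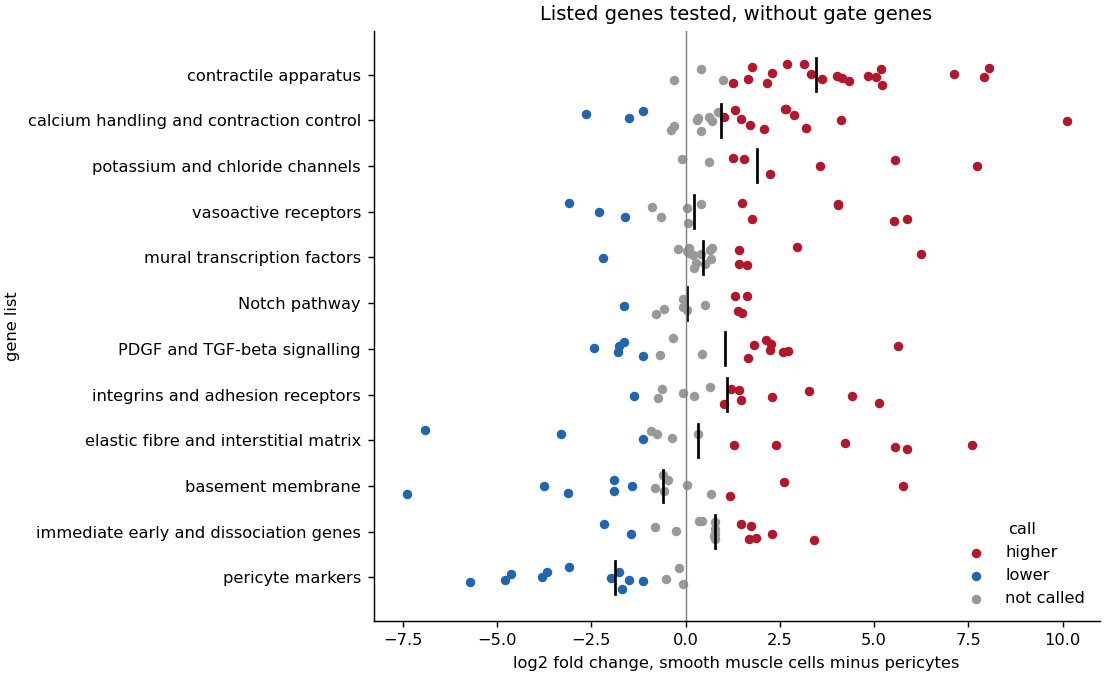
Log2 fold change of VSMCs minus pericytes (horizontal axis) of every tested gene of 12 lists, without the genes that chose the cells, with the list's median as a black bar. Contractile genes have 19 higher and 0 lower calls, pericyte markers 0 higher and 11 lower, and the other lists lie between.

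Of 18 transcription factor genes tested, 5 were higher, 1 was lower and 12 were not called, beside 25.4% of all genes called. Against pericytes without the upper limits, 9 of 22 were higher and 3 lower. Myocd, encoding myocardin, had 89.0, 104 and 71.6 CPM in VSMCs from 35 UMIs and 1 UMI in pericytes, a ratio of 121-fold, with a 95% counting interval of 20.3 to 4904. It was found in 26.0% of VSMCs and 0.199% of pericytes, and at a fixed 2000 UMIs per cell in 11.5% and 0%. Srf itself had 113, 104 and 31.8 CPM against 29.4, 28.9 and 34.7 CPM, and library 3 lay within the pericyte values (log2 fold change 1.42, SE 0.39, adjusted p = 0.0035). That call was lost under DESeq2 and without library 1 or 2. Klf4, a factor known for repressing contractile genes in cultured cells and also induced by dissociation, had 1019, 851 and 1129 CPM against 143, 164 and 76.3 CPM (log2 fold change 2.96, SE 0.18, adjusted p = 2.72e-15), and was not called against pericytes without the upper limits. Mef2c was higher by 1.41 and Hes1 by 1.62. Foxf2, a forkhead factor of brain pericytes, had 56.6, 13.8 and 31.8 CPM against 179, 153 and 125 CPM (log2 fold change -2.19, SE 0.34, adjusted p = 3.13e-06). Ebf1 and Heyl were not called, at 0.28 and 0.03.

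Of 11 Notch pathway genes tested, 4 were higher and 1 was lower, and 6 of 16 were higher and 5 lower against pericytes without the upper limits. Jag1, a ligand, had 316, 215 and 358 CPM in VSMCs against 107, 116 and 87.8 CPM (log2 fold change 1.49, SE 0.21, adjusted p = 5.46e-07). Notch3, the receptor that marks mural cells, had 494, 519 and 644 CPM against 624, 538 and 571 CPM, and the 2 groups overlapped (log2 fold change -0.07, SE 0.14, adjusted p = 0.78). Notch1 had 154, 90.0 and 175 CPM against 416, 427 and 441 CPM and did not overlap (log2 fold change -1.64, SE 0.20, adjusted p = 4.42e-08). Nrarp, a target and feedback inhibitor of the pathway, was higher by 1.38 on the log2 scale. Notch2 was called higher with a log2 fold change of 1.30 (adjusted p = 0.021), a call lost under DESeq2, with no TMM factors and without any 1 library.

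Growth factor genes of the PDGF and TGF-beta families were higher for 8 of 16 tested and lower for 5, with a median log2 fold change of 1.05. Against pericytes without the upper limits 5 of 23 were higher and 6 lower and the median was -0.54, so the direction of the list depended on those limits. Tgfb3, a TGF-beta ligand, had 267, 381 and 286 CPM in VSMCs against 6.30, 8.89 and 2.31 CPM (log2 fold change 5.62, SE 0.33, adjusted p = 8.06e-16). Pdgfa, a ligand, had 477, 568 and 382 CPM against 58.8, 91.1 and 64.7 CPM (log2 fold change 2.73, SE 0.19, adjusted p = 4.58e-14). Pdgfrb, the receptor that recruits mural cells, had 429, 429 and 334 CPM against 1334, 1400 and 1357 CPM (log2 fold change -1.78, SE 0.13, adjusted p = 3.16e-13). The ligands were thus above and the receptor below the pericyte values in each library, though the Pdgfrb call was lost against pericytes without the upper limits. The targets Ctgf, Cyr61 and Id3 were higher by 2.25, 2.14 and 1.83, Cyr61 not against pericytes without the upper limits. Id1, called higher at 2.27, turned to -1.20 against pericytes without the upper limits, and Smad7 (2.57) was not called there. Eng, the co-receptor endoglin, had 40.5, 20.8 and 47.7 CPM against 225, 182 and 180.3 CPM (log2 fold change -2.44, SE 0.31, adjusted p = 8.06e-08). Inhba, the subunit of activin A and 1 of the 10 highest genes, had 80.9, 55.4 and 143 CPM and no pericyte UMI, at least 41.4-fold higher.

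The laminin chains differed between the cell types. Of 15 basement membrane genes tested, 3 were higher and 6 lower. Lama5, the alpha-5 chain, had 121, 111 and 207 CPM in VSMCs against 2.10, 4.44 and 0 CPM, a ratio of 65.6-fold, with a 95% counting interval of 21.3 to 327. Lama2, the alpha-2 chain, had 16.2, 6.92 and 7.95 CPM against 124, 171 and 127 CPM (log2 fold change -3.75, SE 0.45, adjusted p = 2.35e-08), and Lama4 had 16.2, 20.8 and 15.9 CPM against 162, 149 and 159 CPM (log2 fold change -3.11, SE 0.38, adjusted p = 3.59e-08). Lama5 was above and Lama2 and Lama4 below the pericyte values in each library. Of the beta chains, Lamb2 was higher by 1.19 (not with no TMM factors or without library 2), and Lamb1 had no UMI in VSMCs and 75.6, 68.9 and 71.6 CPM in pericytes, at least 9.47-fold lower. Col4a1 and Col4a2, the chains of the main collagen IV, were not called (-0.46 and 0.03).

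Of 13 matrix genes tested, 6 were higher in VSMCs and 3 lower. Eln, encoding elastin, had 105, 104 and 63.6 CPM against 0, 2.22 and 11.6 CPM (log2 fold change 4.24, SE 0.64, adjusted p = 1.71e-06). Ltbp1, which tethers latent TGF-beta to the matrix, had 380.2, 311 and 294 CPM against 10.5, 2.22 and 6.93 CPM (log2 fold change 5.56, SE 0.32, adjusted p = 6.19e-16). Lox, the enzyme that crosslinks elastin and collagen, had 27 UMIs against 1, a ratio of 93.2-fold, with a 95% counting interval of 15.4 to 3814. Npnt, a ligand of integrin alpha-8, had 33 UMIs against 0, at least 38.0-fold higher. These 4 genes were higher in each library, though Eln and Lox rest on few UMIs. Col1a1 had no UMI in VSMCs and 50.4, 60.0 and 41.6 CPM in pericytes, at least 6.67-fold lower, and Col3a1 had 2 UMIs against 74, a call lost against pericytes without the upper limits. Both collagens are fibroblast genes, and the pericyte cells with a fibroblast UMI, described above, move with them. The median of the 13 genes was 0.33, and -0.15 without library 3.

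Caveolae and adhesion receptors were higher for 8 of 14 genes tested and lower for 1. Cavin1 and Cav1, which build caveolae, had log2 fold changes of 4.40 and 5.12. Cavin1 stood at 1392, 1364 and 1583 CPM in VSMCs against 65.1, 71.1 and 67.0 CPM and was found in 100% of VSMCs, 15.3% of pericytes, 66.8% of endothelial cells and 0.214% of microglia. Cavin1 was thus common in endothelial cells as well. Cav1 and Cav2 were not called against pericytes without the upper limits, where the Cav2 difference became -0.047. Itga8, the integrin alpha-8 chain, had 80.9, 132 and 95.4 CPM against 29.4, 48.9 and 32.4 CPM (log2 fold change 1.46, SE 0.32, adjusted p = 3.39e-04), lost under DESeq2, and Mcam, an adhesion molecule, was higher by 1.43.

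Pericyte markers outside the rule were higher for 0 and lower for 11 of 14 tested, with a median log2 fold change of -1.88, and lower for 6 of 14 with a median of -0.68 against pericytes without the upper limits. Atp13a5, a P-type ATPase specific to brain pericytes among mural cells, had 105, 27.7 and 39.8 CPM in VSMCs and 1628, 1476 and 1555 CPM in pericytes (log2 fold change -4.78, SE 0.21, adjusted p = 3.43e-19). It was found in 11.5% of VSMCs, 93.2% of pericytes, 19.5% of endothelial cells and 0.500% of microglia. Ggt1 had 2 UMIs against 396, a ratio of pericytes to VSMCs of 57.4-fold, with a 95% counting interval of 15.8 to 476. In library 1 both UMIs of Ggt1 and the highest VSMC values of Atp13a5 and P2ry14 were found. Ndufa4l2 was lower at -1.50, a call lost against pericytes without the upper limits. Cspg4 and Notch3, shared by both mural types, and Slc38a11 were not called. Outside the lists, the genes furthest on the pericyte side were Spp1, encoding osteopontin (231, 338 and 92.4 CPM in pericytes, at least 29.2-fold), the hormone gene Stc1 (at least 10.3-fold), the glutamate receptor gene Grm3 (at least 10.0-fold), Nedd4l, Saa1, Fbln1 and Ptges, all without a UMI in VSMCs. Spp1, Stc1, Grm3, Nedd4l and Lamb1 were also called against pericytes with Kcnj8 or Abcc9 and no fibroblast UMI (325 cells). Saa1, Fbln1, Ptges, Col1a1 and Dcn then fell below the filter on low counts. The genes furthest on the VSMC side outside the lists were Palld, encoding the actin crosslinker palladin (285 UMIs against 3), Fbxl22 (109 against 1), and Sh3bgr, Etnk2, Nxnl2 and Atcayos with 51, 43, 36 and 49 UMIs against 0. Atcayos is annotated antisense to another gene and is uncertain.

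Immediate early genes, which also respond to tissue dissociation, were higher for 6 of 17 tested and lower for 2. Atf3 had 1068, 1578 and 1694 CPM in VSMCs against 130.3, 180 and 92.4 CPM (log2 fold change 3.41, SE 0.16, adjusted p = 2.69e-18) and Btg2 had 3746, 4035 and 3921 CPM against 834, 940 and 615 CPM (log2 fold change 2.30, SE 0.10, adjusted p = 6.41e-19). Hspa1a, a heat shock gene, had 429, 353 and 517 CPM against 1895, 2104 and 1761 CPM (log2 fold change -2.16, SE 0.13, adjusted p = 3.35e-15). Fos and Egr1 were not called, with log2 fold changes of 0.35 and 0.75. These genes, like the mitochondrial share, moved with the comparison, and their part in the other differences was not tested.

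Shares of cells with a UMI were set at 1 depth by thinning each cell to 2000 UMIs, which kept 96 of 96 VSMCs and 363 of 503 pericytes. Pln was then found in 89.6% of VSMCs, 0.275% of pericytes, 0% of endothelial cells and 0.148% of microglia. Lmod1 was found in 53.1% and 2.20% of VSMCs and pericytes (68.8% and 2.78% unthinned). Tpm2 was found in 100% of VSMCs and still in 22.6% of pericytes, whereas microglia, taken as the background of free RNA, had 0.629%. Gpr20, Kcna5 and Tgfb3 were found in part of the VSMCs, 21.9%, 16.7% and 38.5%. A cell without a UMI at this depth may still express the gene.

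**Figure D4:**
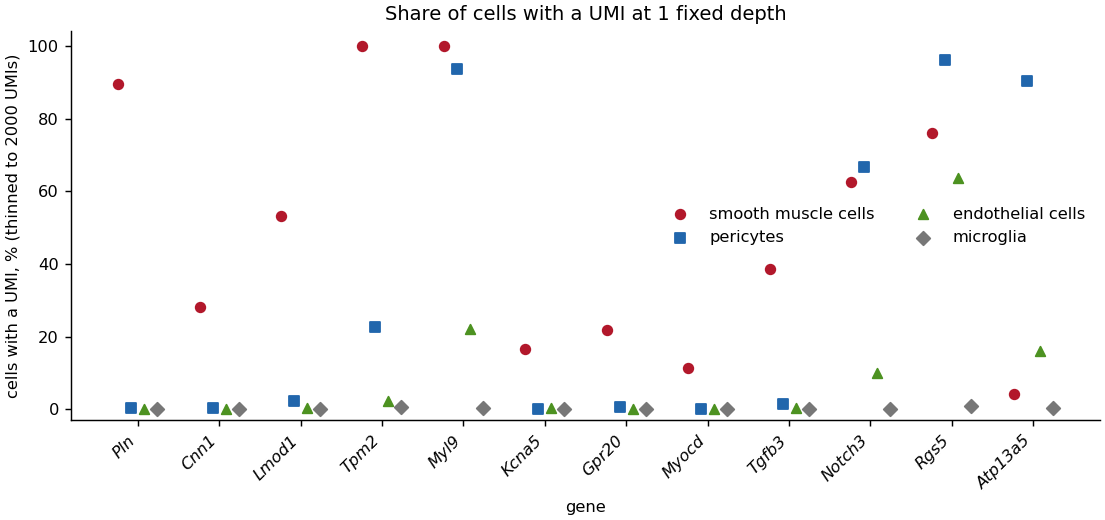
Share of cells (%) with at least 1 UMI of 12 genes after each cell was thinned to 2000 UMIs, in VSMCs, pericytes, endothelial cells and microglia of the 3 unsorted libraries together. Pln, Cnn1, Lmod1, Kcna5, Gpr20, Myocd and Tgfb3 are near 0 outside VSMCs, whereas Myl9, Notch3 and Rgs5 are shared with pericytes.

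The members varied among themselves in the 3 genes that chose them, which made up 0.415% to 3.60% of the UMIs of a cell (median 2.02%). The cells of each library were split at the median of this share into high-share and low-share cells, 15, 17 and 16 of each. Since the split uses the UMIs that chose the cells, the 2 groups are compared as a description and no p-value is given for a gene. The 3 members nearest the limit were all low-share cells. The median share was 2.45%, 2.62% and 2.38% in the high-share cells and 1.65%, 1.66% and 1.61% in the low-share cells, and the median depth was 3996, 4309 and 4387 UMIs against 4383, 4804 and 4215.5. The median mitochondrial share was higher in the high-share cells of each library, 14.4%, 16.1% and 14.4% against 13.3%, 13.6% and 12.9%, and its part in the differences was not tested. Of 1106 genes fitted, 8 met the limits of a call as higher in the high-share cells (0.723%) and 19 as lower (1.72%), together 2.44%. These calls were fragile. Without library 3 none was called (103 genes at an unadjusted p below 0.05), without library 1 there were 1 and 6, and DESeq2 called 0 and 4. Without the 22 members that reached the pericyte sum, 1 was higher and 2 were lower.

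Among the contractile genes not used by the rule, 1 of 18 was higher, 0 were lower and 17 were not called, with a median log2 fold change of 0.44. Cnn1 had 277, 595 and 276 CPM in the high-share cells and 43.6, 115 and 140.1 CPM in the low-share cells (log2 fold change 1.93, SE 0.32), and was found in 30 of 48 against 11 of 48 cells. The log2 fold changes of Tpm2, Myl6 and Myl9 were below 1 (0.72, 0.60 and 0.43). The other genes higher in the high-share cells were Thbs1, encoding thrombospondin 1 (2.40), Ramp1 (1.08), Fbxl22 (1.02), Higd1a (1.59), Pmepa1 (1.53), Ndufb11 (1.12) and Sbno2 (1.13). For Thbs1, 1 cell held 89 of the 193 UMIs of the high-share cells, and the difference became -1.16 without the members that reached the pericyte sum.

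Of 10 pericyte markers fitted, 4 met the limits of a call as higher in the low-share cells and 0 in the high-share cells, again as a description. The pericyte sum of 6 was reached by 16 of the 48 low-share cells and 6 of the 48 high-share cells. Without these 22 members 1 of 7 markers fitted, Rgs5, met the limits. Vtn, encoding vitronectin, had 1336, 1170.5 and 1191 CPM in the low-share cells and 185, 236 and 110.4 CPM in the high-share cells (log2 fold change -2.78, SE 0.25). It was found in 20 of 48 low-share cells and 18 of 48 high-share cells. Single low-share cells of libraries 1, 2 and 3 held 58, 70 and 41 of the 269 UMIs of the low-share cells. Rgs5 had 3544, 2799 and 3812 CPM against 2127, 1116 and 980.1 CPM (log2 fold change -1.32, SE 0.17) and was found in 46 of 48 against 31 of 48 cells. Neither gene overlapped between the groups, which were split on the UMIs that chose the cells. Rgs5 met the limits of a call under DESeq2 and without the members that reached the pericyte sum. Without library 3 neither Rgs5 nor Vtn met them. Higd1b was lower in the high-share cells at -1.19 and Pdgfrb at -1.10. Ptn, encoding the growth factor pleiotrophin, had 1104, 496 and 729 CPM in the low-share cells and 0, 0 and 55.2 CPM in the high-share cells (log2 fold change -5.24, SE 0.45), from 20 of 48 against 2 of 48 cells. Abcc9 was found in 3 of the 48 low-share cells and 0 of the 48 high-share cells. Tbx2, a T-box factor of mural cells, was lower at -1.18 (77.1, 112 and 221 CPM against 247, 356 and 322 CPM). Sept4, Bcas3, Sptbn1, Phlda1, Nes and Eid1 were lower with log2 fold changes of -1.68 to -1.27. The Meg3 call (-2.06) rested on 1 cell with 130 of the 175 UMIs of the low-share cells.

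**Figure D5:**
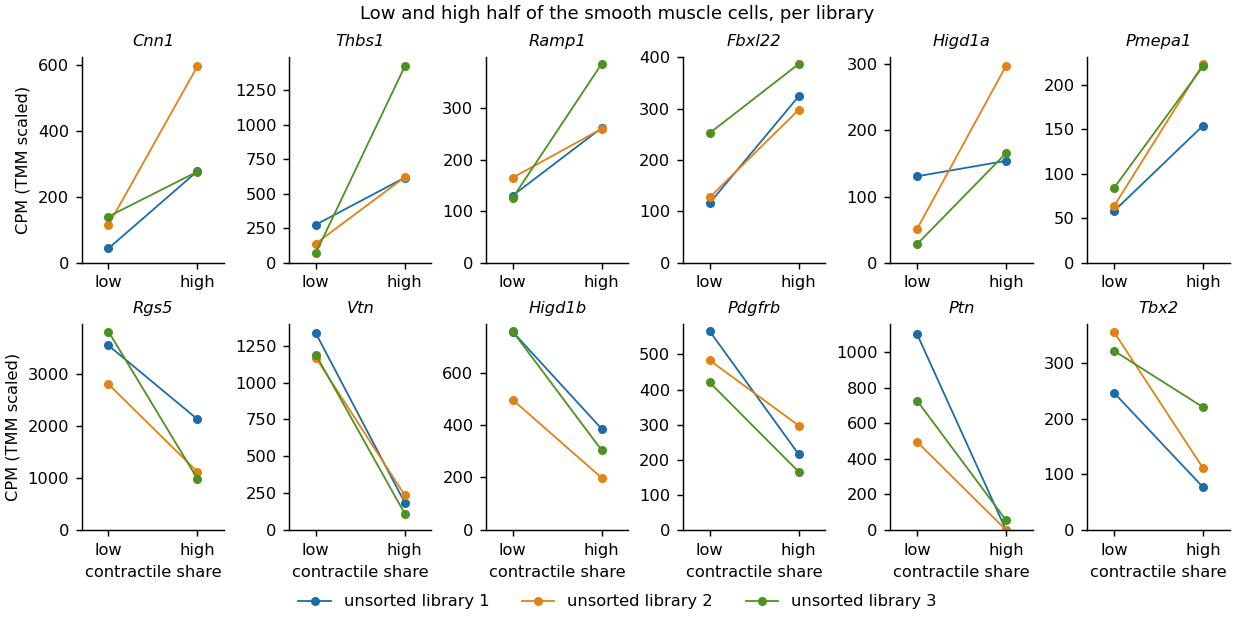
CPM (TMM scaled, each axis from 0) of 12 called genes in low-share and high-share VSMCs, 1 line per unsorted library. Cnn1, Thbs1, Ramp1, Fbxl22, Higd1a and Pmepa1 go up and Rgs5, Vtn, Higd1b, Pdgfrb, Ptn and Tbx2 go down in each of the 3 libraries.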

How the data were processed

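The deposited files were 10x Genomics UMI counts per gene and cell for 4 libraries (1 sorted and 3 unsorted), made by the authors with Cell Ranger (version 3.0.2 per the file headers) against mm10 with the viral barcodes added, and a table of neuron metadata that was used only for its cell and sample names. The study's limits of 500 to 8000 genes, 1000 to 60000 UMIs and 20% of mitochondrial UMIs per cell were applied, which left 21263 of 24801 barcodes (54749198 to 87841541 UMIs per library). No doublet caller was run here. The upper limits on other types' genes stood in for it. Counts are of the 3' ends of transcripts and are not compared between genes. Viral UMIs did not enter library sizes.

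For each library the raw UMIs of each cell group were added up, and the sums were compared by the edgeR (4.0.16, R 4.3.3) quasi-likelihood F test, with TMM factors, filterByExpr and library as a block. The pairing comes from the titles, which give each unsorted library 1 mouse. The deviations of its 2 sums correlated at -0.0178 to 0.105. A call needed an adjusted p (Benjamini-Hochberg, over all genes fitted) below 0.05 and a log2 fold change of 1 or more in either direction. Genes used to choose cells were fitted but neither counted nor tested. With 3 libraries, each from 1 mouse of 1 experiment, few degrees of freedom are left per gene. The p-values therefore rest on a dispersion estimated with information shared between genes. They do not measure the spread of a single gene between the 3 mice. Alternatives were DESeq2 (1.42.0), no block, no TMM factors, no filter, leaving out each library, other limits on cells, and thinning to at most 5000 UMIs. A fold against 0 UMIs was set against a floor of 3 UMIs over the group, and ratios with 1 to 3 UMIs have an exact 95% interval of counting error only. Scripts were tested on simulated data.

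Named are the genes that chose the cells and Pln, the 10 highest and 10 lowest called genes of each comparison with the same sign in 3 of 3 libraries and at least 50 CPM in the higher group (mitochondrial, ribosomal, Gm and Rik genes left out), and from each list the 4 most abundant members and up to 6 called members with the largest change. Cald1, Vcl, Zyx, Ldb3, Cspg4 and Slc38a11 against pericytes, Olfr558 against all other cells, Tpm2 and Abcc9 among the VSMCs and in the shares of cells, and the markers at 0 were named after their values had been seen. Of the genes that meet the rule, 1 is not reported here. The split of VSMCs by contractile share uses the genes that chose the cells, so its calls are a description. The members, lists and tests were chosen with earlier results of these data known.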

Additional observations from a re-analysis of the deposited data

Results flagged for a closer look

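A total of 65 cells of the unsorted libraries had the smooth muscle UMI sum and were in no VSMC sum, since they went over an upper limit (25, 20 and 20 cells in libraries 1, 2 and 3). They draw attention because a smooth muscle signal appears outside the cells that were compared. Of these cells, 58 exceeded the limit on Cldn5, 5 that on the microglial genes and 2 that on the neuronal genes. Their median depth of 12100 UMIs was above the 4313 UMIs of the VSMCs. Whether they are pairs of cells was not tested. The sorted library held 0 such cells.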

How the results depend on the processing

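The counts of genes higher or lower in VSMCs than in all other cells stayed within 1.5 times under every alternative except leaving out a library, where they were 481 to 1006 higher and 264 to 2113 lower, both lowest without library 2. Against pericytes, the count of lower genes was 308 under DESeq2, 932 with no TMM factors and 1196 without the 3 upper limits on pericytes, and the count of higher genes stayed within 1.5 times. The split by contractile share changed most. Its 8 higher and 19 lower genes became 0 and 4 under DESeq2, 4 and 10 with 0 UMIs of each limiting gene, 1 higher with a mitochondrial limit of 30%, 1 and 2 without the members that reached the pericyte sum, and 16 higher between the cells of highest and lowest share after a split into 3, and 0 to 8 higher and 0 to 16 lower with 1 library left out. Without the replicate block it had 5 higher genes and 4 of its 21 named genes lost their call, and the block changed no other named call and no other count by over 1.5 times. The mitochondrial limit, the pericyte sum and the choice of pericytes without fibroblast UMIs were added after the data had been seen. Among the named genes, the sign turned for Id1 (-1.20) and Cav2 (-0.047) against pericytes without the 3 upper limits and for Thbs1 (-1.16) between high-share and low-share cells without the members that reached the pericyte sum. The cause of these changes was not tested. The median log2 fold change of all genes against pericytes moved from -0.04 to -0.34 with no TMM factors. All 20 lists but the Notch pathway, the vasoactive genes and the untested erythrocyte markers kept the sign of their median there and under DESeq2. Of the 105 named genes called against pericytes, 82 kept sign and call in every alternative in which they were tested. Of the 138 against all other cells 102 did, and of the 21 in the split by contractile share 0 did. Not all were tested in each alternative. Against pericytes without fibroblast UMIs 91 of the 105 kept their call, and without library 2 101 of the 138 did. The share of VSMCs stayed within 1 SD of 0.496% under all alternatives. Of the 42 vasoactive genes, 28 were below the filter on low counts against pericytes and 3 against all other cells.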
